A study of Mus musculus with 6 samples.

Results

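The genes described here encode the peptide hormones of the endocrine pancreas: Ins2 (insulin) and Iapp (islet amyloid polypeptide) of beta cells, Gcg (glucagon) of alpha cells, Sst (somatostatin) of delta cells, Ppy (pancreatic polypeptide) and Pyy (peptide YY), associated with PP cells, and Ghrl (ghrelin) of epsilon cells. These 7 genes were chosen by symbol. Of them, 6 were matched among the 14681 genes of the authors' deposited table of test results, and Iapp is not analysed here. The samples were dorsal pancreas from C57BL/6 mouse embryos at embryonic day 18.5, in 3 control and 3 knockout samples. The labels give the knockout embryos the allele name Dpy30∆P, and Dpy30 is a shared core subunit of the complexes that methylate lysine 4 of histone H3. The labels do not name the promoter that drives the deletion, although the name of the deposited table refers to Pdx1, a factor of pancreatic progenitors and beta cells. The labels do not give the genotype of the controls or say whether they carry a Cre.

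Islet hormones are made as longer precursors, cut by prohormone convertases, stored in dense granules and released on demand. In the mouse pancreas near birth each mature endocrine cell type is defined by the hormone it makes most of, and the genes are switched on by partly shared transcription factors. Pyy is active in many early endocrine cells before it becomes restricted, and ghrelin and somatostatin are also made in the stomach.

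The deposited table holds for each gene a mean normalized count across the 6 libraries, a log2 fold change, its error, and p-values before and after adjustment. Values of single samples are not analysed here, so neither the overlap of the groups nor the spread between samples can be shown directly. The numerator of the fold changes is not stated. A negative value is read below as lower in the knockout, and every direction would turn if the authors had set the ratio the other way. Dpy30 itself did not fix the direction: its mean count was 29.4, its log2 fold change in the authors' deposited table was 0.01 ± 0.22 (posterior SD), and its unshrunken value had a 95% interval from -2.73 to 3.71. The deposited fold changes had been shrunk towards 0, and 92.7% of them lay within 0.1 of 0. For this reason an unshrunken log2 fold change and its SE were rebuilt from each deposited value and its error. Such a value is given only where its z, the ratio of value to SE, returned the deposited p to within 0.1 z units, which held for Ins2, Gcg, Sst and Ghrl. The tissue carried most of the listed acinar transcripts. Of 8 listed acinar markers 7 were matched, from Pnlip with a mean count of 7.23 to Ctrb1 (chymotrypsinogen B1) with 161670. Of the 6 with an adjusted p, 4 were called lower by the authors' DESeq2 test, where 0.479% of all genes were. Ctrb1 was not called, nor was Rbpjl, whose unshrunken value was 0.04 ± 0.52 (SE).

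Upstream sequence is shown for the 3 hormone genes with the smallest p among those with an entry in the RefSeq promoter table (GRCm38.p6): Gcg, Pyy and Sst. Ins2 had no entry. Each sequence is the 250 bases before the annotated start, written 5′ to 3′ on the gene's strand, and capitals mark every match on either strand to TATAAA, TGACGTCA or TAATTA.
Gcg (chr2:62483654-62483903, minus strand): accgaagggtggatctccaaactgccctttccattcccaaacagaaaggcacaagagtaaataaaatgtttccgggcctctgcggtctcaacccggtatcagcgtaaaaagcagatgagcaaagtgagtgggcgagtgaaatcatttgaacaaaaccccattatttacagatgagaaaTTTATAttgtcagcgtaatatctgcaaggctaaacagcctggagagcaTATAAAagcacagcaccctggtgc
Sst (chr16:23890845-23891094, minus strand): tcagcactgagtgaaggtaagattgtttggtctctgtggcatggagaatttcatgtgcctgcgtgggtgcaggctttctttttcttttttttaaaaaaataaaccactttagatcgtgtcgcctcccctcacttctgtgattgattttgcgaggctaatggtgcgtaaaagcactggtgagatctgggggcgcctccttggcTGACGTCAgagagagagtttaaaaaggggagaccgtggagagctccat
Pyy (chr11:102107833-102108082, minus strand): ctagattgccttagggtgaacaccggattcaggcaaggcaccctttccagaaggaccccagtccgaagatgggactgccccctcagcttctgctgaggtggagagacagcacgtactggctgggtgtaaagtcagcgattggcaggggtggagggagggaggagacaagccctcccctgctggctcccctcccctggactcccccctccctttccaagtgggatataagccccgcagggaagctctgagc

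The sequence of Gcg held TATAAA at position -24 before the start and, on the other strand, at position -72. TATAAA is the core of the TATA box, and 13.6% of the 32841 promoter windows of 300 bases in the table held it on either strand. The sequence of Sst held the palindrome TGACGTCA, the letters of the cyclic AMP response element first described in somatostatin genes, at position -48. This match was found in 1.79% of all windows. The whole Sst window lies inside the gene span given below, 23889573 to 23891342. Its positions are thus counted from an annotated start within that span, not from the 5′ end of the span. TAATTA, a core bound by many homeodomain factors, was in none of the 6 hormone promoter windows searched and in 5.29% of all windows. These 6 windows were those of Gcg, Sst, Ppy, Pyy, Ghrl and Iapp, although the expression of Iapp is not analysed here. Pyy had 2 entries and Ghrl 4, and only the window nearest the 5′ end of the gene span was searched for each. The shares of all windows count every entry. The looser E-box pattern CANNTG, which overlaps none of the capitals, was found 3 times for Gcg, at positions -139, -108 and -83, and once each for Sst and Pyy, and was in 72.3% of all windows. These matches describe letters only.

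Ins2 was the most abundant hormone transcript. Its mean normalized count over all 6 libraries was 5335, which placed it at rank 57 of 14681 genes. Gcg followed with 756, Sst with 214, Pyy with 118, Ghrl with 108 and Ppy with 19.8. Ins2 held 81.4% of the counts of the 6 genes, Gcg 11.5% and Sst 3.27%. Together the 6 genes made up 0.179% of all counts in the table. Per kilobase of transcript, taking the median length of the principal GENCODE transcripts, the mean level was 11116 for Ins2, 695 for Gcg, 297 for Sst, 212 for Pyy, 153 for Ghrl and 40.1 for Ppy. The order was thus the same per count and per length, with Ins2 16.0 times above Gcg per kilobase. Whether neighbours in this order differ beyond their spread over samples was not tested. Lengths of the Ins2 principal transcripts ran from 455 to 918 bases, so its level per length is approximate.

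Both of the most abundant hormones were lower in the knockout. By the authors' DESeq2 test, 2 of the 5 testable hormone genes were called at an adjusted p under 0.05, Ins2 and Gcg, both lower. Of all 12108 genes with an adjusted p, 0.743% were called, and 0.479% were called lower. The same 2 hormone genes were called with p-values adjusted over every gene with a p (0.389% of all genes lower), over genes with a mean count of at least 50 (0.54%), and at a threshold of 0.1 (0.619%). On a scale set by pan-endocrine or by pan-epithelial genes, 4 hormone genes could be tested, because Pyy had no unshrunken value. Only Ins2 was called there (0.123% and 0.167% of all genes lower). Gcg lost its call (Benjamini-Hochberg adjusted p = 0.207 and 0.202, z test without the error of the reference). All 6 deposited fold changes were negative, against 45.3% of all genes, although Ghrl turned positive relative to either reference, and Sst relative to the endocrine reference without Pam. Pyy, Sst and Ghrl did not pass, and Ppy had no p.

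Ins2 (Entrez gene 16334, chromosome 7, 142678656 to 142679726, GRCm38) had a deposited log2 fold change of -3.46 ± 0.42 (posterior SD). Its adjusted p was 2.95e-14 per the authors' deposited table. This fold change was the lowest among called genes with a plain symbol, a rule that leaves out Rik names, Gm numbers and symbols that start with a digit. Shrinkage had moved it little: the unshrunken value was -3.56 ± 0.42 (SE), which is 11.8-fold lower, with a 95% interval from 6.73-fold to 20.8-fold. For groups of equal size the mean and the fold change imply a normalized count of about 9839 in the controls and 832 in the knockouts. The implied level fell from 20497 to 1734 per kilobase, which left Ins2 above the implied level of every other hormone in either group. Its nearest genes by deposited fold change among called genes were Cul9 (a cullin) at -3.41, Clps (colipase) at -3.14 and Cpa1 (carboxypeptidase A1) at -2.54, all 3 from the authors' deposited table. This likeness rests on a single comparison. Mouse has another insulin gene, which is not analysed here: of 1180 distinct runs of 31 bases in the principal Ins2 transcripts, 47 also occur in it, so reads from those stretches could be split between the copies.

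**Figure D1:**
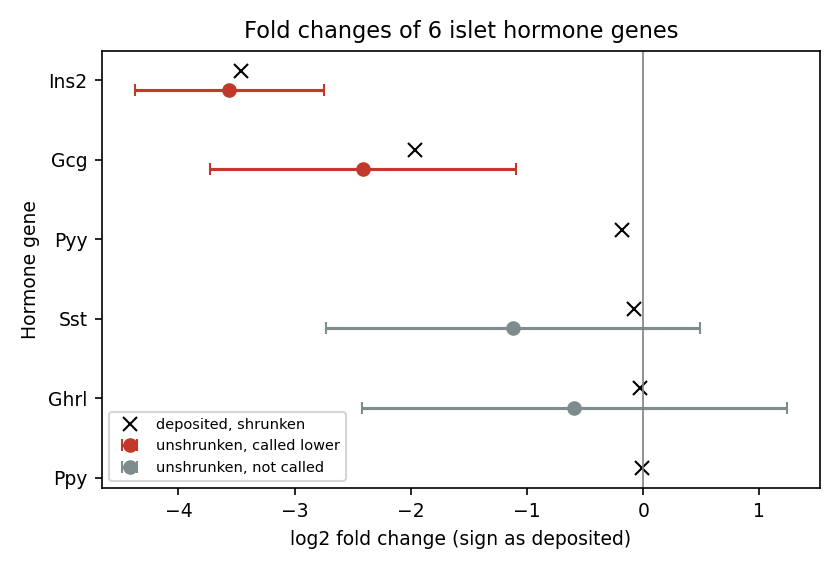
Size of change in log2 units (x axis, with the deposited sign) for 6 islet hormone genes (y axis): crosses are the authors' deposited shrunken values and circles the rebuilt unshrunken values with 95% intervals. The intervals of Ins2 and Gcg lie below 0, those of Sst and Ghrl include 0, and Pyy and Ppy have no circle because no unshrunken value met the tolerance or no p was given.

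Gcg (Entrez gene 14526; chromosome 2, 62474530 to 62483653) encodes proglucagon, from which alpha cells cut glucagon. In the authors' deposited table its log2 fold change was -1.97 ± 0.76 (posterior SD), with an adjusted p of 0.0389, close to the threshold. The call was lost relative to the endocrine and the epithelial reference. The unshrunken value was -2.41 ± 0.67 (SE), or 5.33-fold lower, with a 95% interval from 2.14-fold to 13.3-fold. The implied normalized count was about 1274 in the controls and 239 in the knockouts. The intervals of Ins2 and Gcg overlap, from -4.38 to -2.75 and from -3.73 to -1.10, and the difference between the genes was not tested because both come from the same libraries.

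Pyy (Entrez gene 217212; chromosome 11, 102106676 to 102107832) encodes a hormone of the same family as pancreatic polypeptide. The authors' deposited table gave it an unadjusted p of 0.00485, an adjusted p of 0.286 and a shrunken log2 fold change of -0.18 ± 0.35 (posterior SD). The shrunken value lay close to 0 although the unadjusted p was small. Rebuilding Pyy missed the tolerance, with a gap of 0.15 z units. With a tolerance of 0.2, chosen after seeing the data, its value was -2.92 ± 0.98 (SE), and from the deposited p in place of the error it was -2.61 ± 0.93. On either route the estimate lay between the unshrunken values of Gcg and Ins2, and Pyy did not pass the authors' adjusted threshold.

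Ppy (Entrez gene 19064; chromosome 11, 102099931 to 102101319) lies 5357 bases from Pyy, with no other gene of the table between them. Its mean count was 19.8, its deposited log2 fold change was -0.01 ± 0.22 (posterior SD), and it had no p. A missing p was shared by 295 genes, 2.01% of the table. DESeq2 leaves out a p when 1 library's count is an outlier for its group, but why Ppy has none is not stated. No statement about pancreatic polypeptide is possible from these values. The related genes were kept apart in counting as far as sequence allows: no run of 31 bases of the principal transcripts of Ppy or Pyy occurs in another GENCODE gene, and the same held for Gcg, Sst and Ghrl.

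Sst (Entrez gene 20604; chromosome 16, 23889573 to 23891342) encodes somatostatin, which restrains insulin and glucagon release. The authors' deposited table gave a log2 fold change of -0.08 ± 0.23 (posterior SD) and an adjusted p of 1.00. Unshrunken it was -1.12 ± 0.82 (SE), with a 95% interval from 6.63-fold lower to 1.40-fold higher. This value depends on the prior assumed in rebuilding it: a prior scale of 0.4 in place of 0.3103 gave -0.21, and a scale of 0.25 gave no value. Ghrl (Entrez gene 58991; chromosome 6, 113716119 to 113719911) encodes ghrelin, the hormone of epsilon cells, which are more frequent in the embryo than in the adult islet. Its value in the authors' deposited table was -0.03 ± 0.22 (posterior SD; adjusted p = 1.00), and its unshrunken value of -0.59 ± 0.93 (SE) had an interval from 5.36-fold lower to 2.36-fold higher. A prior scale of 0.4 gave -0.07 for Ghrl, and a scale of 0.25 gave no value. For neither Sst nor Ghrl do the 95% intervals show that the groups were alike. At its SE, a call would have needed about a 7.65-fold change of Sst and a 10.1-fold change of Ghrl, against 5.28-fold for Gcg and 2.80-fold for Ins2.

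**Figure D2:**
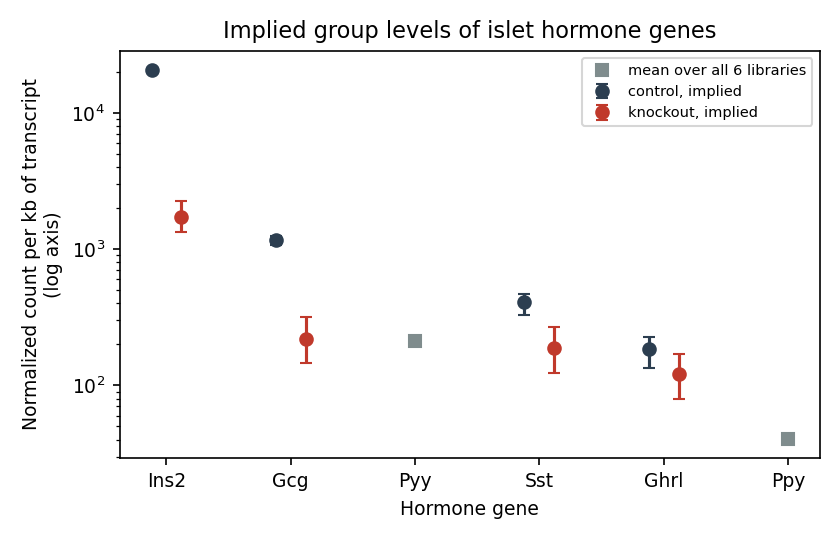
Normalized counts per kilobase of transcript (y axis, log axis) of 6 hormone genes (x axis): circles are control and knockout levels implied by the mean over all libraries and the unshrunken fold change, bars span 1 SE of that fold change only, and squares are means over all 6 libraries where no fold change was rebuilt. Ins2 goes from 20497 to 1734 and Gcg from 1171 to 220, while the bars of Ghrl overlap.

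The makeup of the hormone transcripts differed between the implied group levels. Among Ins2, Gcg, Sst and Ghrl, Ins2 held 85.3% of implied counts in the controls and 64.4% in the knockouts, Gcg 11.04% and 18.5%, Sst 2.55% and 10.4%, and Ghrl 1.13% and 6.69%. With the ratio set the other way these shares change places, so that Ins2 would hold 64.4% in the controls and 85.3% in the knockouts. Per kilobase, as the sign is read here, Ins2 was 17.5 times above Gcg in the controls and 7.89 times in the knockouts, and these would change places too. The shares of Sst and Ghrl rest on unshrunken values that depend on the prior. From the deposited fold change the implied knockout count of Sst is 208 in place of 135. The implied knockout count of Ghrl is then 107 in place of 86.5. These shares carry the errors of the 4 fold changes, and the change in share was not tested.

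Stomach transcripts were present in the mean over all libraries, and endocrine cells of the stomach also make ghrelin and somatostatin. The mean does not show how many of the libraries carried these transcripts. Of 8 listed gut and stomach epithelial markers, 3 were matched. Tff1 and Gkn1, mucosal proteins of the stomach, had mean counts of 154 and 80.9 and no p, while Vil1 (villin), at a mean of 84.9, was not called (adjusted p = 1.00 by the authors' DESeq2 test). Of 9 stomach genes picked after their values were seen, Tff1 and Gkn1 among them, 7 had no p. Pgc (pepsinogen C), at a mean of 95.7, and Bpifb1, at 515, were among these, and Tff1, Gkn1, Pgc and Bpifb1 all had a deposited log2 fold change of -0.01. As for Ppy, why they have no p is not stated, and a count outlier in 1 library was not tested. The most abundant of the 9, Ctse (cathepsin E, a protease of the gastric mucosa), had a mean count of 1603 and an unshrunken value of -0.98 ± 0.41 (SE); the authors' deposited table gave an unadjusted p of 0.0164 and an adjusted p of 0.540. Tff2, at a mean of 206, was at -0.53 ± 0.65 (adjusted p = 1.00 by the authors' DESeq2 test). Their part in the values of Ghrl and Sst was not tested. Markers of enteroendocrine cells of the gut were near the bottom of the table, with mean counts from 1.17 to 4.98 for 5 of 6 listed genes, and 0 of these had an adjusted p. The 8 neuron markers, listed because neurons also make Sst, had mean counts from 3.88 to 377. None of the 8 was called by the authors' DESeq2 test. At an unadjusted p of 0.05, 1 was higher and 0 lower, where 2.70% of all genes lay in each direction.

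Ins2 and Gcg were measured less precisely than most genes of like abundance. The SE of Ins2, 0.42, was larger than that of 98.1% of the 52 genes with a mean count within 1.5-fold of its own, whose median SE was 0.26. The SE of Gcg, 0.67, exceeded that of 98.0% of 708 such genes, with a median of 0.41. Sst exceeded 84.7% of its 2510 counterparts. Ghrl sat in the middle, above 52.4% of 2827. The SE holds both the spread between libraries and the counting error of the group with fewer counts, and these parts were not separated.

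**Figure D3:**
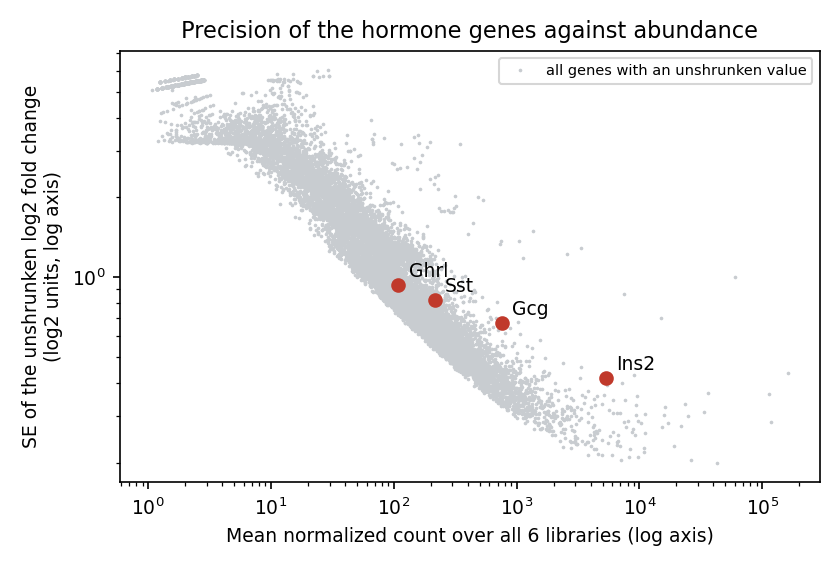
SE of the unshrunken log2 fold change (y axis, log2 units, log axis) against mean normalized count (x axis, log axis) for all genes with an unshrunken value, in grey, and 4 hormone genes, in red. Ins2 and Gcg lie above most genes of like abundance, at SEs of 0.42 and 0.67, while Ghrl lies within the cloud.

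In whole tissue, fewer cells of a type and less RNA per cell cannot be told apart. As a measured reference, the inverse-variance weighted mean of 7 pan-endocrine genes other than the hormones was -1.05 ± 0.45, and that of 11 pan-epithelial genes was -0.66 ± 0.17, both on the unshrunken log2 scale. The 7 endocrine genes differed widely, from Chga at -2.74 to Pam at 0.07, and Pam carried 34.6% of the weight. Without Pam, an alternative chosen after seeing the data, the endocrine reference was -1.64 ± 0.40 over 6 genes. Relative to the endocrine reference Ins2 was at -2.51, or 5.70-fold lower, Gcg at -1.36, Sst at -0.069 and Ghrl at 0.46. Without Pam in the reference Ins2 was at -1.92, or 3.78-fold lower, Gcg at -0.77, Sst at 0.52 and Ghrl at 1.05. Ins2 was still called on that scale by a z test without the error of the reference (Benjamini-Hochberg adjusted p = 5.13e-07), where 0.123% of 11402 genes were called lower, and without Pam (adjusted p = 7.59e-05), where 0.0877% were. Relative to the epithelial reference 0.167% of genes were called lower. Over all genes these scalings changed the balance of calls: 58 genes were called lower and 32 higher as deposited, 19 and 161 relative to epithelial genes, 14 and 860 relative to endocrine genes, and 10 and 3334 relative to endocrine genes without Pam. Gcg was called relative to none of these references.

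A pair of granule genes was called lower together with the hormones, and most other genes that process and store them did not pass. Of 13 listed prohormone processing and granule genes, 11 were matched and 10 had an adjusted p. Of these 10, 2 were called lower and 0 higher by the authors' DESeq2 test, where 0.479% of all genes were called lower. A negative sign was held by 10 of 11, against 45.3% of all genes. Chga and Chgb, the chromogranins of endocrine granules, were the called members, with unshrunken values of -2.74 ± 0.55 (SE) and -2.65 ± 0.61. The median unshrunken value was -1.82 over 10 genes, against 0.07 over the 12742 genes of the table with one. This median takes no account of the SEs of the 10 values, which ran from 0.35 to 3.04. How far it depends on the prior was not tested. Pam, which amidates the ends of pancreatic polypeptide, peptide YY and other peptides, was at 0.07 ± 0.35 (SE).

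Of 16 listed transcription factors of hormone genes, 14 were matched and 10 had an adjusted p. None was called (0 of 10 in the authors' DESeq2 test), although at an unadjusted p of 0.05 there were 3 lower and 0 higher, where 2.70% of all genes lay in each direction. Isl1, a factor of all islet endocrine cells, and Mafa, an activator of insulin genes, had the smallest p (0.00780 and 0.0174), and the authors' deposited table gave them adjusted p of 0.371 and 0.558. The negative sign was shared by 13 of 14, against 45.3% of all genes, and the median unshrunken value of 11 was -1.47. This median takes no account of the SEs of the 11 values, which ran from 0.69 to 5.78. It also leaves out Isl1 and Mafa, which had no unshrunken value. Pdx1, an activator of Ins2, was at -0.88 ± 1.10 (SE) and was not called. Most of these genes had few counts, with means from 1.25 to 142.

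Of 10 listed genes of beta cell glucose sensing and insulin storage, 9 were matched and 6 had an adjusted p. In the authors' DESeq2 test 0 of the 6 were called. At an unadjusted p of 0.05, 2 were lower and 0 higher, where 2.70% of all genes lay in each direction. A negative sign was held by 8 of 9, against 45.3% of all genes. Nnat, which helps process preproinsulin, was at -1.25 ± 0.46 (SE), and the authors' deposited table gave an adjusted p of 0.333. Sytl4, a granule docking protein, had an adjusted p of 0.771 there. G6pc2 and Kcnj11, genes of glucose sensing and of the ATP-sensitive potassium channel, had no p.

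Receptors of the hormones did not move in 1 direction. Of 20 listed, 13 were matched, 6 had an adjusted p, and 0 of 6 were called in the authors' DESeq2 test. At an unadjusted p of 0.05, 1 receptor was lower and 0 higher, where 2.70% of all genes lay in each direction. Of the 13, 8 had a negative sign, against 45.3% of all genes, and the median unshrunken value of 10 was -0.04. This median leaves out Ramp1, Sstr3 and Glp1r, which had a negative sign and no unshrunken value. Insr, the insulin receptor, was at -0.96 ± 0.55 (SE), and the authors' deposited table gave an adjusted p of 0.876. Ramp1, a partner of calcitonin-family receptors that bind amylin, had few counts (mean 16.1) and was not called (adjusted p = 0.425 by the authors' DESeq2 test). Relative to pan-epithelial genes, 0.66 is added to every value. The list medians were then -1.16 for processing and granule genes, -0.81 for transcription factors, -0.60 for beta cell genes and 0.61 for receptors. The median of all genes was then 0.73. None of these medians takes account of the SEs, and how far they depend on the prior was not tested. Genes without an unshrunken value are left out, such as Sytl4 and Ucn3 of the beta cell genes, both with a negative sign.

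**Figure D4:**
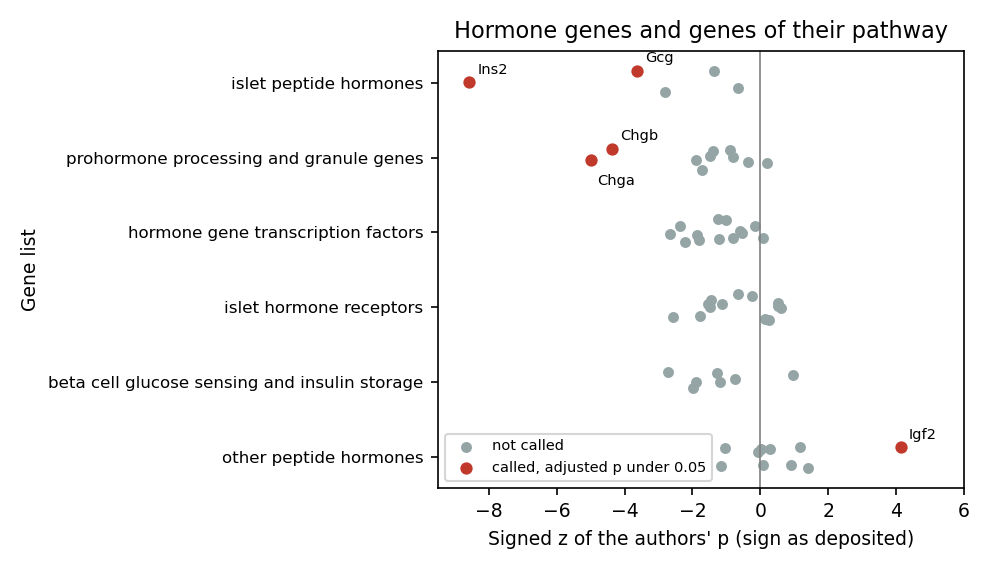
Signed z of the authors' p (x axis, sign as deposited) for the hormone genes and 5 lists of pathway genes (y axis), 1 point per gene with a p. Of the called genes, in red, Ins2, Gcg, Chga and Chgb lie below 0 and Igf2 above 0; transcription factors and beta cell genes lie mostly below 0 without a call.

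Peptide hormones made mainly outside the islet did not share the direction. Of 18 listed, 10 were matched and 5 had an adjusted p. Igf2 (insulin-like growth factor 2), a growth hormone of the fetus, was the 1 called member, higher at 0.87 ± 0.21 (SE, unshrunken), and the authors' deposited table gave an adjusted p of 0.00845. Of all genes, 0.264% were called higher. No listed member was lower at an unadjusted p of 0.05 (0 of 10 by the authors' DESeq2 test), where 2.70% of all genes were. Cartpt, with the next smallest p, had a mean count of 4.55. Igf2 ends 11840 bases from Ins2 on chromosome 7 (142650768 to 142666816), so 2 genes of 1 imprinted cluster were called in opposite directions. Igf2os, which is antisense to Igf2 and nearer to Ins2, was at -1.06 ± 0.97 (SE) and not called; whether the counting used strand is not stated, so reads of Igf2 and Igf2os may be mixed. Igf2 is broadly active in fetal mesenchyme, and of 7 mesenchyme markers 7 had a positive sign, where 45.3% of all genes had a negative one. None of the 7 was called by the authors' DESeq2 test, where 0.264% of all genes were called higher. At an unadjusted p of 0.05, 3 of the 7 rose, where 2.70% of all genes did. The part of mesenchyme in the value of Igf2 was not tested. Nearest to Ins2 on its other side was Th, with a mean count of 8.15 and no adjusted p. The genes that flank Gcg were Dpp4, the protease that inactivates its product glucagon-like peptide, at 0.01 ± 1.24 (SE), and Fap at 0.16 ± 0.80, both not called. Tatdn2 and Sec13, beside Ghrl, were at -0.02 ± 0.52 and -0.05 ± 0.60.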

How the data were processed

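RNA from dorsal pancreas of 3 control and 3 knockout embryos was, per the labels' protocols, ribodepleted before stranded library preparation. Trimmomatic, Salmon, DESeq2 and the build GRCm38 (mm10) are named per the submitters' processing notes, without versions. The authors deposited 1 row of results per gene: a mean normalized count across libraries (a signal, as deposited), a log2 fold change with its error (log2, deposited by the authors), and a p-value and adjusted p-value (deposited by the authors). Depth per sample is unknown. The planned case of a table of results applied, and no gene was tested again on counts. Of 14681 genes, 14386 had a p-value and 12108 an adjusted one.

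The members and gene lists were chosen with earlier results of these data known. Unshrunken values assume a Cauchy prior of 1 scale for all genes. The scale that returned most deposited p-values was 0.3103, and 12742 genes met the tolerance of 0.1; the arithmetic was tested on simulated data. Implied group counts assume equal groups. References for scaling used genes with an SE of at most 1. Named genes are all members, and in each of 5 lists the called genes and the 2 with the smallest p. Others named (Pam, Pdx1, G6pc2, Kcnj11, Pnlip, Rbpjl, flanking genes) were chosen after their values were seen. The labels say that 3 embryos of each kind were dissected but do not tie each sample to an embryo, so the spread behind a p-value may be partly technical. One listed factor is not described by name here. Python 3.11.15, numpy 2.4.6, scipy 1.17.1 and pandas 2.3.3 were used.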

Additional observations from a re-analysis of the deposited data

How the results depend on the processing

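Across 59 recomputed values, 37 kept their direction, their side of the threshold or their size within 1 SE. Of the others, 12 moved further in size, 6 were weaker and 4 turned sign. The size of Ghrl relative to epithelial genes, 0.066, is among the 37 although its sign turned. The count of 2 hormone genes called lower was the same with p-values adjusted over all genes with a p. It was also the same over genes with a mean count of at least 50, and at a threshold of 0.1. Relative to pan-epithelial genes it was 1, Ins2, of the 4 with an unshrunken value. The same held relative to pan-endocrine genes with or without Pam. Over the whole table, 90 genes were called as deposited, 56 among genes with a mean count of at least 50, 180 relative to pan-epithelial and 874 relative to pan-endocrine genes, or 3344 without Pam in that reference. Subtracting a negative reference adds a constant to every gene, which is why sizes moved: Ins2 became -2.91 relative to epithelial and -2.51 relative to endocrine genes, Gcg became -1.36, Sst -0.069 and Ghrl 0.46 relative to endocrine genes. Ghrl turned sign on both scales, with adjusted p of 0.985 for the epithelial and 0.769 for the endocrine reference. Without Pam in the endocrine reference, Ins2 was at -1.92, Gcg at -0.77, Sst at 0.52 and Ghrl at 1.05, where Sst and Ghrl turned sign with adjusted p of 0.606 and 0.367. A prior scale of 0.4 gave -0.21 for Sst and -0.07 for Ghrl, and a scale of 0.25 gave no value for Sst and Ghrl. From the deposited fold change, the implied counts of Sst were 220.2 in controls and 208 in knockouts. Pyy had a value of -2.92 at the wider tolerance of 0.2. No paired analysis was possible because the table holds 1 result per gene and no values per library, and no replicate could be left out for the same reason. Precision limits Sst and Ghrl, where a call would have needed a 7.65-fold and a 10.1-fold change. Depth per library is unknown.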

Other observations

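Several islet and stomach genes had no p-value. Of all genes, 2.01% had none. Among the lists of cell markers the share was highest for gut and stomach epithelium, 2 of 3 (Tff1 and Gkn1). It was 1 of 15 for pan-epithelial genes, 0 of 13 for hormone receptors and 0 of 10 for other peptide hormones. Among islet genes this held for 3 of 19 pan-endocrine genes (Scg2, Snap25 and Neurod1), for 2 of 9 genes of beta cell glucose sensing and insulin storage (G6pc2 and Kcnj11) and for 1 of 6 hormone genes (Ppy). The lists share members, these genes were noticed after their values were seen, and the difference from the table was not tested. The genes at hand had mean counts of 22.2 for Scg2, 17.6 for Snap25, 12.7 for Neurod1, 24.4 for G6pc2 and 9.89 for Kcnj11.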
